A study of Mus musculus with 2 samples.

Results

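The GATA, TAL and LMO factors are the transcription regulators known for steering blood progenitors toward red cells, megakaryocytes and mast cells. They were described here in granulocyte-monocyte progenitors, precursors in the bone marrow whose offspring are neutrophils and monocytes. The factors were the GATA proteins Gata1, Gata2 and Gata3, their cofactor Zfpm1, the basic helix-loop-helix (bHLH) factors Tal1 and Lyl1 with their partner Tcf3, the bridging proteins Lmo2 and Ldb1, and the mast cell and pigment cell factor Mitf. They were taken as the rows of both gene tables whose identifiers carry these symbols in the GENCODE annotation, and all 10 were found among 43346 annotated genes. The study sequenced total RNA of 1 group, primary granulocyte-monocyte progenitors of male adult C57BL/6J mice aged 5 to 6 weeks, in 2 libraries labelled as separate biological replicates. Both libraries are tied to 1 donor record, no treatment or altered gene is named, and the input was 100 ng of RNA after removal of ribosomal RNA. There was no second group, so each result is a level, a difference between genes within a library, or a ratio between the libraries. With 2 libraries no p-value is given, and the SD of a mean covers the spread of these 2 samples, which may be technical.

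GATA proteins are zinc finger factors that bind the word GATA in DNA. In red cell precursors they act in a complex in which Tal1, paired with an E protein such as the product of Tcf3, binds an E-box while Lmo2 and Ldb1 bridge the DNA-bound proteins. Gata2 works in stem cells, early progenitors and mast cells, and Gata1 takes over at many of its sites as red cells and megakaryocytes mature. Gata3 is the family member of T cells and innate lymphoid cells.

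The libraries held 49473848 expected counts in replicate 1 and 44260902 in replicate 2, where an expected count is the number of reads an estimator assigned to a gene. Levels are given in TPM, a share of all transcripts corrected for their length and scaled to a fixed total. Nuclear protein-coding genes took 19.07% of all TPM in one library and 22.84% in the other (replicates 1 and 2), and "rescaled TPM" below is TPM scaled again to the same total over those genes alone. CPM is the count scaled to the library total in the same way, without length. Markers of the labelled cell type were present, with 6 of 6 at or above 1 TPM in both libraries, among them Mpo, encoding myeloperoxidase, at 2420 ± 187 TPM (SD, n = 2). Of 7 genes that textbook gates for these cells exclude, only Itgam, an integrin of mature myeloid cells, was at or above 1 TPM in both libraries.

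The factors spanned a wide range of levels, with Lmo2 highest and Gata3 without a read. At 1 TPM or more in both libraries were 6 of the 10, namely Lmo2, Ldb1, Lyl1, Tcf3, Tal1 and Mitf, while 40.9% of all 21474 protein-coding genes passed the same threshold. The median TPM of the 10 was 1.65 in replicate 1 and 1.55 in replicate 2, beside 0.17 and 0.20 over all protein-coding genes. On rescaled TPM 9 of the 10 were at or above 1 in both libraries. That scale raises the value of every gene with reads, and the share over all protein-coding genes was not taken on it. In RNA from many cells, a gene active in few cells and a gene weakly active in many cannot be told apart.

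**Figure D1:**
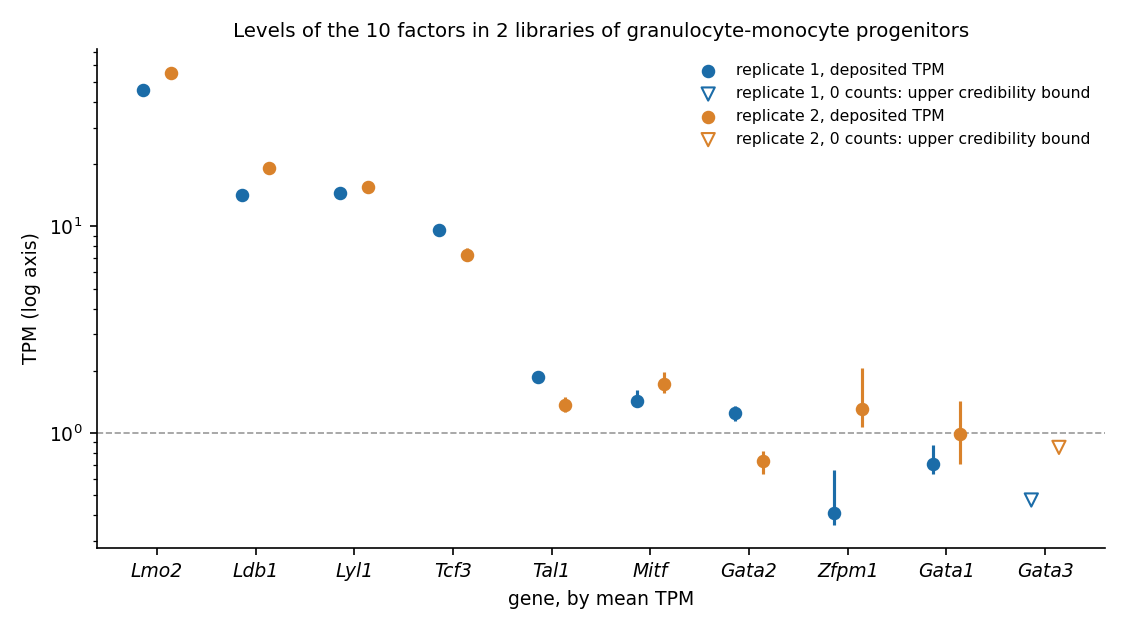
Level of each factor in TPM on a log axis, with genes ordered by mean and 1 point per library. Vertical lines are the deposited credibility intervals, and the dashed line marks 1 TPM. Open triangles give the upper credibility bound over all transcripts of Gata3, a gene with 0 counts. Lmo2 stands above all others at 45.4 and 55.0 TPM, and the points of Gata2, Zfpm1 and Gata1 lie on both sides of 1 TPM or just below it.

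Lmo2, the LIM-only adaptor that links GATA and bHLH proteins, was at 45.4 and 55.0 TPM in replicates 1 and 2, from 8770 and 7943 expected counts. Its mean of 50.2 ± 6.73 TPM (SD, n = 2) was higher than that of 97.0% of protein-coding genes. Ldb1, the dimerising LIM-binding protein that brings distant elements together, was at 14.2 and 19.2 TPM in replicates 1 and 2. The bHLH factor Lyl1 was at 14.4 and 15.5 TPM in replicates 1 and 2, inside the range of Ldb1. Both bridging proteins and Lyl1 were thus above 14 TPM in each library. Lmo2 lies on chromosome 2 at 103957986 to 103981878 of mm10, Ldb1 on chromosome 19 at 46031570 to 46045214 and Lyl1 on chromosome 8 at 84701457 to 84704715.

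Tcf3, which encodes the E proteins E12 and E47, was at 9.56 and 7.28 TPM in replicates 1 and 2, below both values of Lyl1. Tal1, the bHLH factor required for blood formation, was at 1.87 and 1.36 TPM in replicates 1 and 2, from 1089 and 606 expected counts. Its paralogue Lyl1 was therefore higher in both libraries. The difference Lyl1 minus Tal1 on log2(TPM + 1) was 2.43 in replicate 1 and 2.81 in replicate 2, a mean of 2.62 ± 0.27 (SD, n = 2), which is larger than the spread between the libraries. Such log differences understate the change of genes near or below 1 TPM. Mitf, the bHLH leucine zipper factor of mast cells and pigment cells, was at 1.43 and 1.73 TPM in replicates 1 and 2, overlapping Tal1. Tcf3 lies on chromosome 10 at 80409514 to 80433647, Tal1 on chromosome 4 at 115056426 to 115071755 and Mitf on chromosome 6 at 97807052 to 98021349.

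The GATA genes were low or without reads. Gata2 was at 1.25 and 0.73 TPM in replicates 1 and 2, from 533 and 241 expected counts. Gata1 was at 0.71 and 0.99 TPM in replicates 1 and 2, from 176 and 66 expected counts. The order of these genes thus differed between the libraries, with Gata2 minus Gata1 at 0.40 in replicate 1 and -0.20 in replicate 2 on log2(TPM + 1), a mean of 0.10 ± 0.42 (SD, n = 2) that is smaller than its spread. On counts, Gata2 was the higher in both libraries. Divided by the length of 1 fixed coding transcript per gene, a scale chosen after the data were seen, Gata2 was at 1.25 and 0.74 TPM and Gata1 at 0.71 and 0.35 TPM, so that Gata2 was the higher in both. Gata2 lies on chromosome 6 at 88193891 to 88207032 and Gata1 on chromosome X at 7959260 to 7978071.

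Gata3 had 0 expected counts in both libraries. The limit used for a count of 0 was 3 counts. At the length of the 3215 nt coding transcript Gata3-201 this is 0.00685 and 0.00894 TPM in replicates 1 and 2. The upper bounds of the deposited credibility intervals of the gene, over all its transcripts, were higher, at 0.474 and 0.852 TPM. Those of the 243 nt processed transcript Gata3-205 were 0.284 and 0.551 TPM, while those of Gata3-201 were 0.00675 and 0.00885 TPM. The level of Gata3 was thus not detectable at this depth. Gata2 minus Gata3 was 0.98 ± 0.27 on log2(TPM + 1) (SD, n = 2), 1.17 in replicate 1 and 0.79 in replicate 2. With Gata3 at 0 TPM, this difference restates the level of Gata2 and depends on the pseudocount. The 3 remaining GATA genes, Gata4, Gata5 and Gata6, also had 0 counts in both libraries. Gata3 lies on chromosome 2 at 9857078 to 9890034.

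Zfpm1, the zinc finger protein also called FOG1 that binds GATA factors, was at 0.41 and 1.30 TPM in replicates 1 and 2, though its expected counts were close at 164 and 175. Zfpm1 minus Gata1 was -0.28 in replicate 1 and 0.21 in replicate 2 on log2(TPM + 1), a mean of -0.03 ± 0.34 (SD, n = 2). The 2 genes could not be ordered. In the ranking by mean TPM, neighbours with overlapping values were Ldb1 and Lyl1, Tal1 and Mitf, Gata2 and Zfpm1, and Zfpm1 and Gata1. Lmo2 did not overlap Ldb1, Lyl1 did not overlap Tcf3, Tcf3 did not overlap Tal1, and Mitf did not overlap Gata2. With the fixed transcript lengths Mitf and Gata2 did overlap, while Tal1 and Mitf, and Gata2 and Zfpm1, did not. Zfpm1 lies on chromosome 8 at 122282141 to 122337251.

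Some of these genes overlap another gene. Zfpm1 lies inside the span of Gm20388 on the same strand, which had 2022 and 2557 expected counts, but no exon base is shared in the annotation. Ldb1 shares 177 exon bases with Pprc1 on the opposite strand, which had 1421 and 1236 counts, and Lyl1 shares 4 with Nfix, which had 1436 and 853. No source used here says whether reads were counted by strand. The gene counts of all 10 factors were whole numbers within 0.005 in both libraries, so they show no read divided in fractions with another gene. Whether reads in those stretches came from the other gene was not tested.

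Between the libraries, Gata1, Gata2 and Tal1 differed most on counts. The log2 CPM ratio of replicate 2 over replicate 1 was -1.27 for Gata1, with a 95% counting interval from -1.73 to -0.88. For Gata2 it was -1.02, with an interval from -1.25 to -0.81, and for Tal1 it was -0.73, with an interval from -0.87 to -0.58. These 3 were below -0.5, where 10.2% of 10707 protein-coding genes that averaged 1 CPM or more lay. None of the 9 factors with reads was above 0.5, where 8.96% of those genes lay. Zfpm1 alone of the 9 was above 0, at 0.21 with an interval from -0.10 to 0.53, which holds 0.

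The share of genes past 0.5 depended on the level. Among 4071 genes with a mean of 1 to 20 CPM, 21.2% were below -0.5 and 18.9% above 0.5. Of the factors, 5 lay in that band, and 3 of these 5 were below -0.5. Among 6636 genes at 20 CPM or more, 3.38% were below -0.5 and 2.85% above 0.5, and none of the 4 factors there passed either bound. The higher factors differed little, with -0.03 for Lmo2, -0.02 for Ldb1, -0.18 for Lyl1 and -0.39 for Tcf3, and Mitf was at -0.33. The counting interval left out 0 for 6 of the 9 factors and held it for Lmo2, Ldb1 and Zfpm1. These intervals cover counting error only, not differences between cell preparations.

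The median ratio of the 9 factors was -0.33, beside -0.001 over all genes averaging 1 CPM or more and 0.004 over 8203 genes with at least 10 CPM. GC content moved with the ratio across all genes. In 5 groups of equal size by GC content the median ratio was 0.166 in the lowest, then 0.065, -0.014 and -0.111, and -0.171 in the highest. After subtracting the median of the gene's own GC group, a step chosen after the data were seen, Gata1 was at -1.16, Gata2 at -0.85 and Tal1 at -0.62. On that scale Lyl1 was at -0.01, and Ldb1, at 0.15, was above 0 along with Zfpm1, at 0.38. The part of GC content in these ratios was not tested further.

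The TPM gave another picture for some of the factors. On rescaled TPM, 4 factors had a ratio of the opposite sign to that on CPM, namely Gata1, Lmo2, Ldb1 and Mitf, where 13.7% of protein-coding genes with at least 1 CPM did so. For Gata1 the rescaled ratio was 0.22, against -1.27 on CPM. For Lmo2 and Mitf the rescaled ratio was 0.01, against -0.03 and -0.33 on CPM, and for Ldb1 it was 0.18, against -0.02. The counting intervals of the CPM ratios of Lmo2 and Ldb1 hold 0, so the sign for these genes is not settled. For Zfpm1 it was 1.40, against 0.21 on CPM. Gata2 and Tal1 were lower in replicate 2 on both scales.

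**Figure D2:**
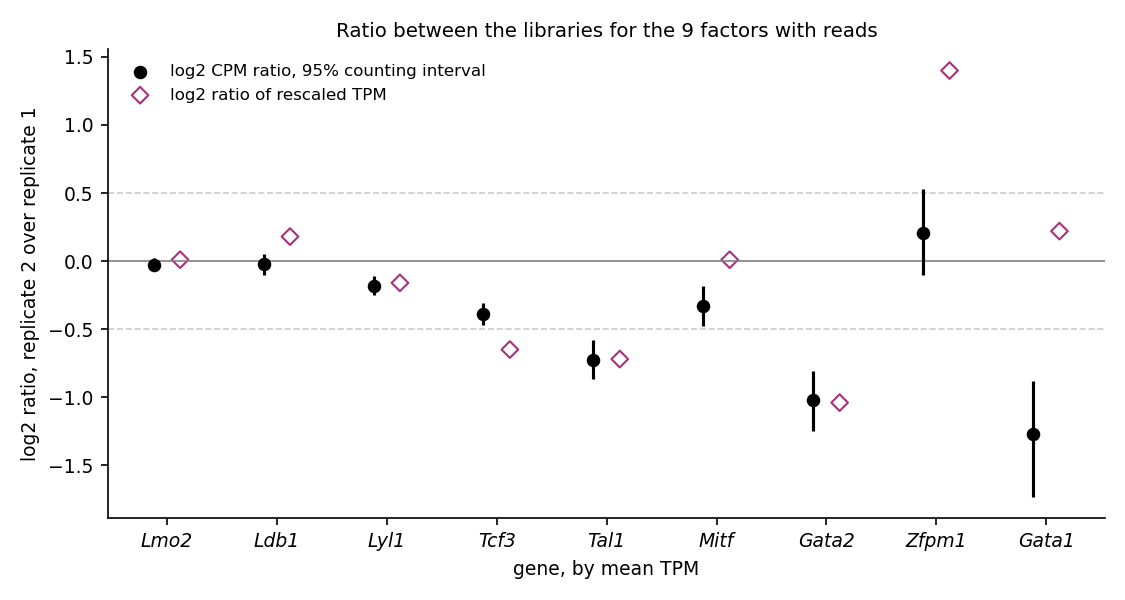
Log2 ratio of replicate 2 over replicate 1 for the 9 factors with reads, ordered by mean TPM; black points are CPM ratios with 95% counting intervals, open diamonds are ratios of rescaled TPM, and dashed lines mark -0.5 and 0.5. The measures lie close for Lmo2, Lyl1, Tal1 and Gata2 and lie apart for Gata1, at -1.27 and 0.22, and for Zfpm1, at 0.21 and 1.40.

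The transcript tables show where those scales part. For Gata1, all 176 counts of replicate 1 were assigned to the 1902 nt transcript Gata1-201. In replicate 2 that transcript held 49 counts, and the 421 nt coding transcript Gata1-203 held 17 counts and 73.74% of the gene's TPM. The effective length of the gene was 1725 and 597 nt in replicates 1 and 2. In replicate 2 those 17 reads of a short transcript thus carried most of the TPM of Gata1. The most upstream annotated start of Gata1 lies 10.2 kb before that of Gata1-201 and had 0 counts.

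Zfpm1 showed the same arithmetic. The coding transcript Zfpm1-201, of 3390 nt, held 83.48% of the gene's TPM in replicate 1, beside 27.72% in replicate 2, from 157 and 128 counts. The short processed transcript Zfpm1-204, of 559 nt, held 0% in replicate 1 and 48.35% in replicate 2, from 24.3 counts. Transcripts not classed as coding held 16.52% of the TPM of Zfpm1 in replicate 1 and 72.29% in replicate 2, but 4.06% and 26.9% of its counts.

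Gata2 has a distal start, known for use in blood and nerve cells, and a proximal start of wider use. In replicate 1 all 533 counts were assigned to the distal transcript Gata2-202. In replicate 2 that transcript held 129 counts and 54.43% of the TPM, and the proximal Gata2-201, whose start lies 4443 nt downstream, held 112 counts and 45.57%. The proximal start was thus assigned reads in only 1 of 2 libraries. The starts are those of GENCODE M21, where both Gata2 transcripts differ in length from the quantified ones, so the distance between starts is uncertain. The deposited credibility interval of Gata2-201 reached up to 0.204 TPM in replicate 1 and began at 0.189 TPM in replicate 2, so the intervals overlap.

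Lmo2 and Tal1 were led by 1 start in both libraries. The distal transcript Lmo2-208 held 86.12% of the TPM in replicate 1, beside 89.42% in replicate 2. The transcript starting 11.5 kb downstream held 3.79% and 4.60%. The 4 transcripts that start about 12.1 to 12.3 kb downstream, in the proximal promoter region, held 10.09% and 5.98%. Tal1 had 4 annotated transcripts, of which Tal1-201, with the most upstream start, held all reads in both libraries. Lyl1 has 1 transcript in the annotation.

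Mitf has many first exons that serve different cell types, and the most downstream coding start makes the form of melanocytes. The coding transcript Mitf-202, from the most upstream start, held 86.45% of the TPM in replicate 1, beside 58.25% in replicate 2. Mitf-206, which begins at the same position and retains an intron, held 13.55% and 22.56%, so that this start held 100% in replicate 1 and 80.81% in replicate 2. The melanocyte start, of Mitf-201, lies 184.7 kb downstream and held 0 counts in replicate 1 and 63.4 counts in replicate 2, or 19.19% of the TPM. Its deposited credibility interval in replicate 2 reached down to 0.000563 TPM, close to 0. Ldb1-201 led Ldb1 with 56.08% in replicate 1 and 32.16% in replicate 2, and the intron-retaining Ldb1-204 held 11.93% and 31.00%. The transcript with the largest share was the same in both libraries for 6 of the 9 genes with reads, the exceptions being Gata1, Zfpm1 and Tcf3. Lyl1 counts among the 6, though with 1 annotated transcript its agreement was fixed. The same share over all genes was not taken.

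**Figure D3:**
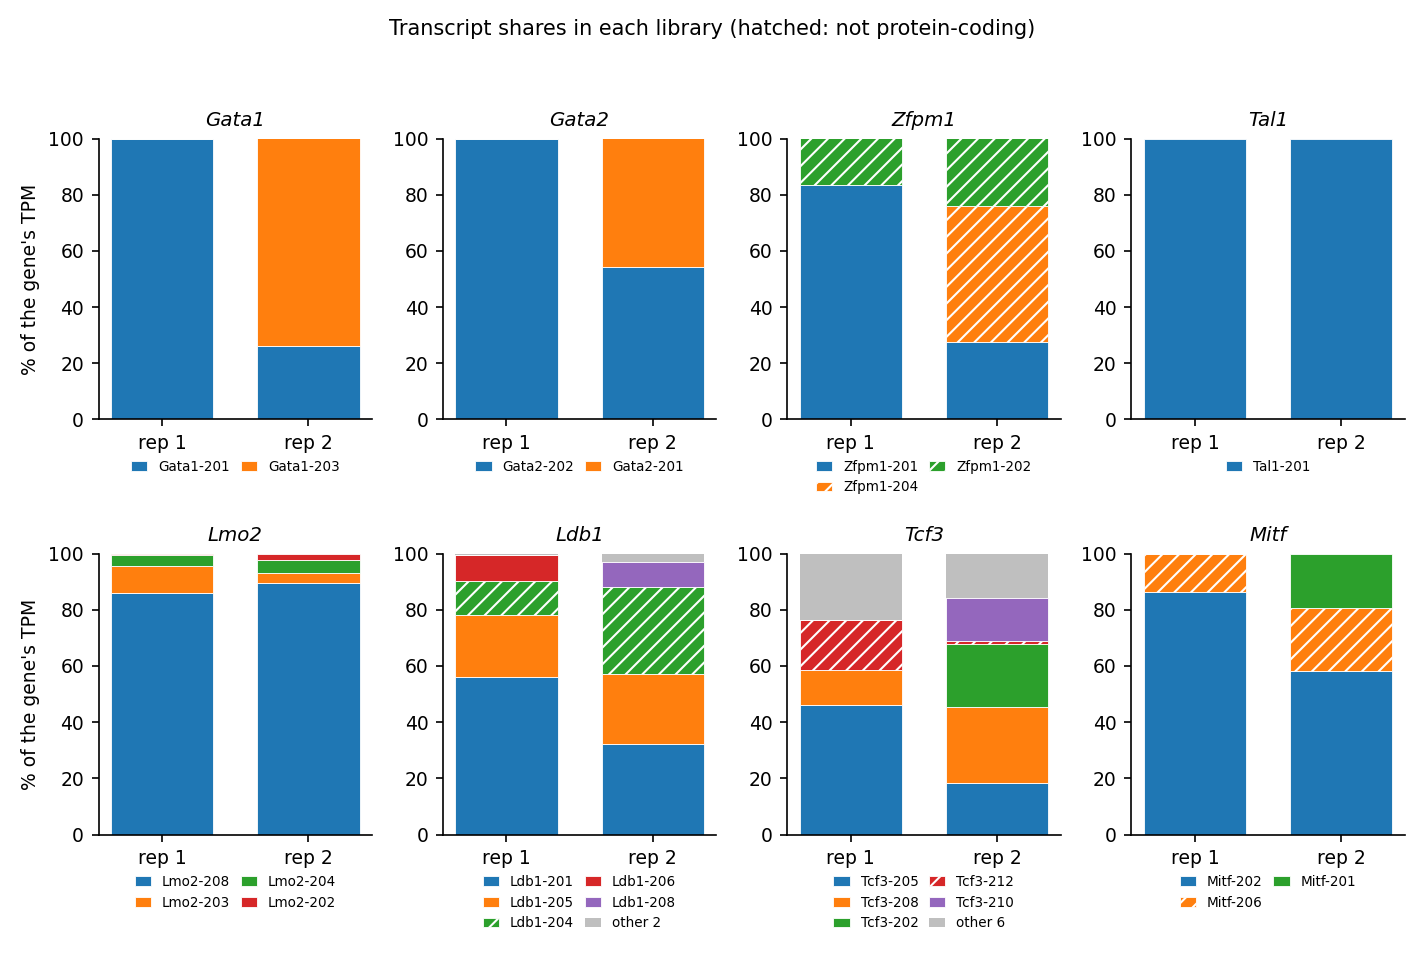
Share of each gene's TPM by transcript in each library, as stacked bars that sum to 100%, with hatched segments for transcripts not classed as protein-coding and grey for the remaining transcripts. Tal1 and Lmo2 look alike in both libraries, while Gata1, Zfpm1 and Tcf3 are led by different transcripts in the 2 libraries.

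Tcf3 makes E12 and E47 by the choice between 2 exons that each encode most of the bHLH domain, and E47 pairs with itself on DNA more readily than E12. The exons are shown because the share of each could be read from the transcripts that hold it. They are neighbouring exons on the minus strand of chromosome 10, the E47 exon of 227 nt at chr10:80410398-80410624 and the E12 exon of 236 nt at chr10:80412827-80413062 of mm10, and were read from GENCODE M21 transcripts. Capitals mark the bases that differ or have no partner after global alignment of the exons, in which 175 of 227 bases of the E47 exon were identical, or 77.1%.
E47 exon: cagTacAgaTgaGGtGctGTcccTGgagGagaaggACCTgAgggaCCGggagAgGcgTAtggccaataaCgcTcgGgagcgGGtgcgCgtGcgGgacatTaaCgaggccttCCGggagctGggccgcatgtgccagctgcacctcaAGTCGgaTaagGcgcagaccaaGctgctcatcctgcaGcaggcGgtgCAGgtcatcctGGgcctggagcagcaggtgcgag
E12 exon: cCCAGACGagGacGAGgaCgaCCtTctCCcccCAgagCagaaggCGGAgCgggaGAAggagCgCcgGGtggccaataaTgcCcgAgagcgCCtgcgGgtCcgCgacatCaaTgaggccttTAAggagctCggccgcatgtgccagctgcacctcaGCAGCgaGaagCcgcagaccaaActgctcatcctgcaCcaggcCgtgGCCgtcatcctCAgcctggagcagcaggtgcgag
The later part of each exon is mostly lower case, and the first part holds most of the capitals.

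Transcripts with the E47 exon held 72.0% of the TPM of Tcf3 in replicate 1 and 71.9% in replicate 2, and those with the E12 exon held 27.5% and 28.1%. The E47 form was the larger in both libraries. The closeness of the 2 libraries did not carry over to other measures. Of the expected counts, transcripts with the E47 exon held 82.0% in replicate 1 and 72.0% in replicate 2. Among the 11 coding transcripts with either exon, those with the E47 exon held 87.9% of the TPM in replicate 1, beside 72.6% in replicate 2. A processed transcript with the E12 exon, Tcf3-212, held 17.61% of the TPM in replicate 1, beside 0.97% in replicate 2. Within the E47 and E12 groups single transcripts moved more, with Tcf3-205 at 46.11% in replicate 1 and 18.51% in replicate 2.

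**Figure D4:**
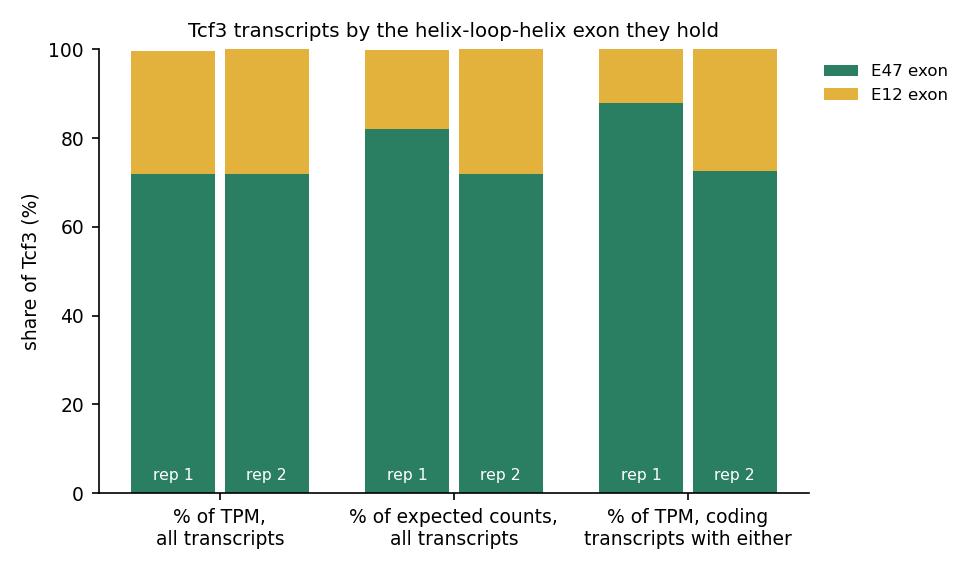
Share of Tcf3 held by transcripts with the E47 exon (green) and the E12 exon (yellow) in each library, by TPM over all transcripts, by expected counts, and by TPM over coding transcripts with either exon. The E47 exon leads in every bar, from 71.9% to 87.9%.

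Paralogues of these factors showed which member of each family the cells held. In the TAL family, Lyl1 made up 88.5% of the TPM in replicate 1, beside 91.9% in replicate 2, Tal1 the rest, and Tal2 had 0 counts. Among the LIM-only genes, Lmo2 made up 81.1% and 84.9%, followed by Lmo4, an adaptor found in many tissues, at 8.96 ± 0.615 TPM and Lmo1 at 1.24 ± 0.0141 TPM (SD, n = 2), with Lmo3 at 0. Ldb2 and Zfpm2, the paralogues of Ldb1 and Zfpm1, had 0 counts in both libraries. The E protein genes were more evenly spread, with Tcf12 at 9.98 ± 3.42 TPM, Tcf3 at 8.42 ± 1.61 TPM and Tcf4 at 4.56 ± 1.34 TPM. Tcf3 was the highest of the 3 in replicate 1, with 46.1% of their TPM, and second to Tcf12 in replicate 2, with 28.9%.

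In the family of Mitf, the related factor Tfec, known from macrophages and osteoclasts, was at 24.5 ± 3.36 TPM (SD, n = 2) and made up 85.1% of the family's TPM in replicate 1 and 83.7% in replicate 2. Mitf made up 5.49% and 5.38%. Tfeb and Tfe3, regulators of lysosome genes, were near Mitf at 1.60 ± 0.347 and 1.40 ± 0.403 TPM. Of 14 paralogues in all, 7 reached 1 TPM in both libraries and the other 7 had no counts. The share over all protein-coding genes, 40.9%, is the one to set beside this count and each list count at 1 TPM below.

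Most partners and cofactors were present. Of 20 listed genes, 17 were at or above 1 TPM in both libraries, with a median of 5.62 and 5.92 TPM in replicates 1 and 2. The highest were the chromatin remodeller Chd4 at 65.7 ± 11.1 TPM, the deacetylase Hdac2 at 39.2 ± 5.18 TPM and the haematopoietic leucine zipper factor Nfe2 at 30.2 ± 5.45 TPM (SD, n = 2). Mta2, a subunit shared with Chd4 in a deacetylase complex, was at 26.2 ± 2.77 TPM and the ETS factor Fli1 at 23.2 ± 3.41 TPM. Below 1 TPM in both were Gfi1b, Klf1 and Id3. Gfi1b, a transcriptional repressor that acts in red cell and megakaryocyte precursors, was at 0.37 and 0.47 TPM. Klf1, the red cell activator, was at 0.14 and 0.10 TPM, and Id3, an inhibitor of E proteins, had 0 counts. Between the libraries, 4 of the 18 listed genes averaging 1 CPM or more were below -0.5 and 1 was above 0.5. Below were Id2, an inhibitor of E proteins, at -1.13, the corepressor gene Cbfa2t3 at -1.0, and Ssbp4 and Ssbp3, whose proteins bind Ldb1, at -0.70 and -0.68. Above was Gfi1b at 1.53, from 28 and 78 expected counts. Of all protein-coding genes averaging 1 CPM or more, 10.2% were below -0.5 and 8.96% above 0.5. With a mean of 1 to 20 CPM, 21.2% were below and 18.9% above.

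Genes that these factors are known to control in red cells were low. Of 17 erythroid genes found of 18 listed, 2 were at or above 1 TPM in both libraries, the alpha globin gene Hba-a2 at 1.19 and 3.77 TPM and the carbonic anhydrase gene Car1 at 1.07 and 3.33 TPM. Hba-a2 shares reads with its near-identical copy Hba-a1, so its value is uncertain. The median of the list was 0.09 and 0.10 TPM in replicates 1 and 2, and the membrane skeleton gene Epb42 had 0 counts. Of the 5 listed erythroid genes averaging 1 CPM or more, 2 had log2 CPM ratios above 0.5, Hba-a2 at 1.24 and Car1 at 1.35. Below -0.5 were 2, the red cell membrane genes Ermap at -1.9 and Ank1 at -2.25, and Hemgn was at -0.47. Of all protein-coding genes with a mean of 1 to 20 CPM, 18.9% were above 0.5 and 21.2% below -0.5.

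Of 14 megakaryocyte genes, 2 were at or above 1 TPM in both libraries. These were the integrin genes Itga2b, at 2.91 and 3.38 TPM, and Itgb3, at 1.40 and 1.30 TPM. The median of the list was 0.03 TPM in replicate 1 and 0 in replicate 2, and Ppbp, Gp1bb and Gp6, all of platelets, had 0 counts in both. Their sum over the list was 5.48 and 5.84 TPM in replicates 1 and 2.

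Mast cell, basophil and eosinophil genes had the highest sum of TPM among the 6 lists for other cell types. Of 14 genes, 7 were at or above 1 TPM in both libraries, beside 40.9% of all protein-coding genes. The sum over all 14, Kit included, was 107.8 and 129 TPM in replicates 1 and 2. The highest were Hdc, the histamine-making enzyme, at 31.2 ± 1.92 TPM, Kit, the stem cell factor receptor that the progenitors also carry, at 22.1 ± 2.43 TPM, and the mast cell protease gene Cpa3 at 22.0 ± 6.26 TPM (SD, n = 2). Prg2, of eosinophil granules, was at 18.2 ± 1.27 TPM and the basophil protease gene Mcpt8 at 9.29 ± 4.00 TPM. The mature mast cell proteases Tpsab1, Tpsb2 and Mcpt4 had 0 counts in both libraries. The part of basophil or eosinophil precursors in the levels of Gata2, Gata1 and Mitf was not tested.

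The lists for other homes of Gata3 and Mitf were near 0. Of 10 T cell and innate lymphoid genes, only Zbtb7b, a zinc finger factor also found outside T cells, was at or above 1 TPM in both libraries, at 2.76 and 1.76 TPM, and Cd3e, Cd3g and Thy1 had 0 counts. None of 8 pigment cell and osteoclast genes was at or above 1 TPM in both, and 6 of them had 0 counts, among them the pigment genes Tyr, Dct and Mlana. None of 7 B lymphoid genes was at or above 1 TPM in both, and 4 had 0 counts. Over the 8 lists, 36 of 103 genes found were at or above 1 TPM in both libraries, beside 40.9% of all protein-coding genes. On rescaled TPM 45 were, and the share over all genes was not taken on that scale.

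**Figure D5:**
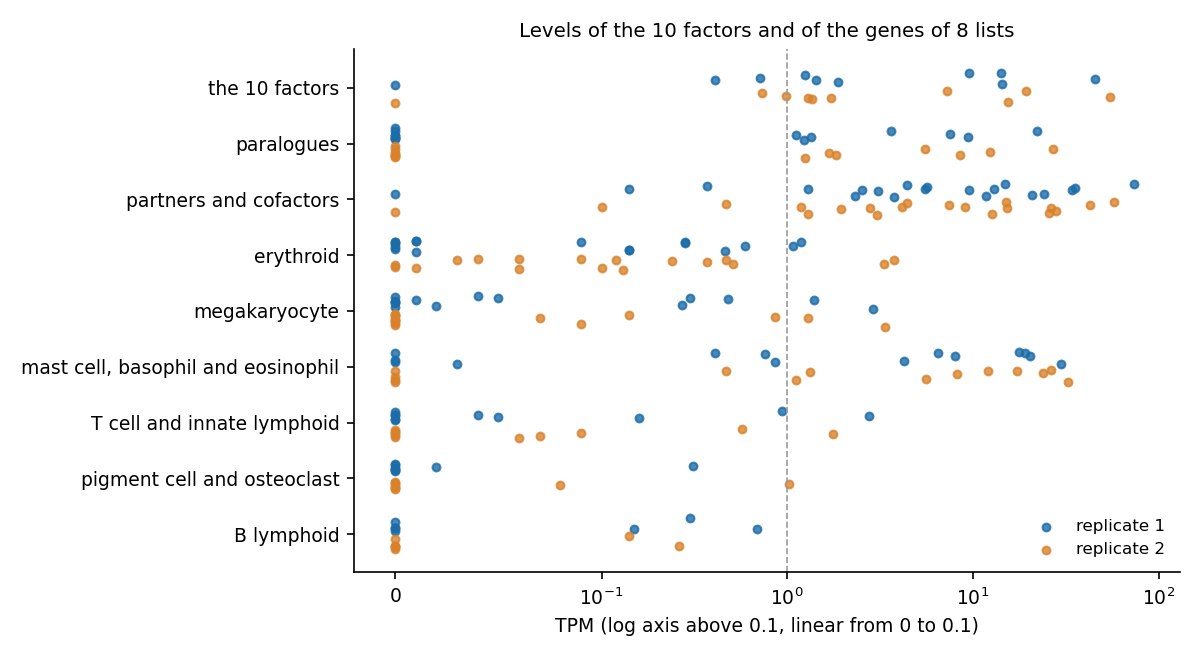
Level in TPM of each of the 10 factors and of each gene in 8 lists, 1 point per gene and library, on an axis that is linear from 0 to 0.1 and logarithmic above; points are spread vertically to be visible and the dashed line marks 1 TPM. Genes of the mast cell, basophil and eosinophil list, the partner list and the paralogue list reach above 10 TPM, while those of the erythroid, megakaryocyte and lymphoid lists stay below 5 TPM.

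The sequences before the starts of the factors were searched for the words of the complex, and 4 of the 15 windows are shown. Each window holds the 250 bases upstream of a start, from RefSeq on GRCm38.p6, and is written along the gene's strand, which is plus for all 4. Capitals mark GATA words (AGATAA and its variant with a final G, AGATAG, or the same with a first T, TGATAA and in turn TGATAG, on either strand) and E-boxes (CANNTG), which do not overlap here. The Gata2 window is that of the distal start, the Tal1 window that of the start with all reads, the Lyl1 window that of its only transcript, and the Mitf window that of the melanocyte start.
Gata2, chr6:88193641-88193890: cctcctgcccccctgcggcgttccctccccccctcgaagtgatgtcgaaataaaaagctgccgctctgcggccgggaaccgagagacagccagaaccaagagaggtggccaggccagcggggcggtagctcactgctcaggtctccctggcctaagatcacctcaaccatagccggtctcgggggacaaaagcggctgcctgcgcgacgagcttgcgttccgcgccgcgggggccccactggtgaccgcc
Tal1, chr4:115056176-115056425: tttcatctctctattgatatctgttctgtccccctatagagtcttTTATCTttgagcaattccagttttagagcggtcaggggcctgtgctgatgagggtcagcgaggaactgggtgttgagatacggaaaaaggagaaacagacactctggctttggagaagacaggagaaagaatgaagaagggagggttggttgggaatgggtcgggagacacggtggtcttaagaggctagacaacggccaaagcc
Lyl1, chr8:84701207-84701456: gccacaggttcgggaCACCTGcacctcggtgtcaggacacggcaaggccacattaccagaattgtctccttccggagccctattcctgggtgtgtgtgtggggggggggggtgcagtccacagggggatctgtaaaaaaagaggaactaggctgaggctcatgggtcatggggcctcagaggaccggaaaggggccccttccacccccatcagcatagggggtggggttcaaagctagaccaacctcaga
Mitf, chr6:97991533-97991782: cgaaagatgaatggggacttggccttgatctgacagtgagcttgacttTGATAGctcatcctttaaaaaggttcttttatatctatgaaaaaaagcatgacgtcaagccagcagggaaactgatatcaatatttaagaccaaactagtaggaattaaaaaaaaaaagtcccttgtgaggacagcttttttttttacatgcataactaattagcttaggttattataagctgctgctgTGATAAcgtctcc
The Tal1 window holds 1 GATA word and the Mitf window 2, the Lyl1 window holds 1 E-box, and the Gata2 window holds neither. The window of the most upstream Mitf start, which held most of the TPM of Mitf, is not shown and holds neither word.

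RefSeq windows were found for 9 of the 10 factors, 15 in all, and Lmo2 had none in the table used. A GATA word was in 4 of the 15, against 26.5% of all 32851 windows, and an E-box in 5, against 66.2%. Windows of 1 gene are not independent of each other, and a word in a window is not evidence that a factor binds there.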

How the data were processed

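Total RNA-seq of 1 group with 2 libraries was used. The deposited tables hold expected counts of genes and transcripts, made by an estimator of the authors that divides shared reads, TPM with posterior means and credibility bounds of unstated level, and each transcript's percent of its gene. Per the file headers and labels the assembly is mm10 and the annotation GENCODE M4. Neither the aligner nor the quantifier is given in the sources used here. Labelled size ranges, without a unit, were 200 to 712 (replicate 1) and 200 to 1000 (replicate 2), and the mean fragment implied by the deposited effective lengths was 178 and 214 nt in replicates 1 and 2.

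Names and coordinates came from GENCODE release M21, also on mm10, by unversioned identifier, and matched 42462 of 43346 annotated genes. Entries for tRNA and spike-ins, 26345 in all, were not used. Expected counts were rounded, and log2 CPM ratios were made with edgeR 4.0.16 in R 4.3.3, with TMM factors of 0.985 and 1.02 (12855 genes kept by filterByExpr) and a prior count of 2. The script was tested on simulated data. Counting intervals are exact at 95%, conditional on the total for a ratio. For a count of 0 a separate limit of 3 counts was set, which is 0.0606 and 0.0678 CPM. The exact interval for 0 reaches 0.0746 and 0.0833 CPM. Exons of Tcf3 were aligned with Biopython 1.88. Fixed transcript lengths are those of 1 coding transcript per gene.

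The members, the gene lists and the measures were chosen with earlier results of these data known. From each list the text names genes at or above 1 TPM in both libraries, at most the 5 highest, and defining markers at 0. Gfi1b, Klf1, Cbfa2t3, Id2, Ssbp3, Ssbp4, Ermap, Ank1, Hemgn, Tfe3 and Lmo1, and genes that overlap a member, were named beyond that rule after their values were seen. No gene of most similar pattern is named, since 2 libraries of 1 group give no pattern. Alternatives were other thresholds, pseudocounts, scalings and filters, size factors of DESeq2 1.42.0, posterior means, and one library at a time. The erythroid gene Ahsp had no matching identifier.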

Additional observations from a re-analysis of the deposited data

How the results depend on the processing

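With one library alone, Gata2 minus Gata1 ranged from -0.20 to 0.40 around 0.10, and Zfpm1 minus Gata1 from -0.28 to 0.21 around -0.03; Zfpm1 minus Gata1 was 0.04 on posterior mean TPM, and the cause was not tested. Gata2 minus Gata3 was 3.40 with a pseudocount of 0.1, 2.49 on rescaled TPM and 0.58 on posterior mean TPM, which gives Gata3 a value above 0, against 0.98. Lyl1 minus Tal1 was 3.15 with that pseudocount and 3.07 on rescaled TPM, against 2.62. The median ratio of the factors was 0.01 on rescaled TPM, against -0.33, and lay between -0.33 and -0.22 under the other settings. The ratio of Gata1 was 0.22 on rescaled TPM. The count of factors at the threshold was 8 at 0.5 TPM, 4 at 5 TPM and 7 with either library alone, against 6. At 5 TPM, 19 of the listed genes passed, against 36. For single genes and lists, 83 of the remaining alternatives stayed close to the reported value and 18 moved. No paired analysis was possible because there is 1 group. Depth limits Gata1, with 66 reads in replicate 2, most among the genes with reads, and the short transcripts that raise the TPM of Gata1 and Zfpm1 there hold 17 and 24.3 reads.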
